A study of Mus musculus with 48 samples.

Results

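Mouse Kupffer cells, which are macrophages that live in the liver's sinusoids, were compared after 3 days with hepatocyte growth factor (HGF) and after 3 days together with Ito cells, another name for hepatic stellate cells, which store vitamin A. The comparison was defined by the sample titles alone and takes 6 of the 48 arrays of the series, 3 with HGF and 3 with Ito cells. Each culture of these groups had first been kept for 1 day with MCSF, the growth factor of macrophages (also called CSF1). The series holds 16 groups of 3 arrays, which cross Kupffer cells and monocytic macrophages with 4 culture conditions (MCSF alone, HGF, Ito cells, or CD146 cells) and with 2 times (1 and 3 days). The Kupffer cells with MCSF alone that go with the later time had 4 days of MCSF in all, and they serve here only as a level set beside the others. The labels give no strain, sex, age or genotype, no dose of HGF and no number of cells. They do not say whether the Ito cells were separated from the Kupffer cells before lysis, or whether MCSF stayed in the medium beside HGF. The titles number the replicates as biological, and nothing says which cultures came from separate animals. The p-values therefore measure the spread between cultures of a group, pooled over the 16 groups and all 48 arrays.

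HGF is a secreted protein that stellate cells and other mesenchymal cells of the liver make as an inactive precursor. Proteases such as matriptase cut it into the active form, which binds the receptor tyrosine kinase MET and acts on hepatocytes, bile duct cells and endothelial cells as a signal for growth and movement. Kupffer cells clear particles and old blood cells from the sinusoids, and their identity depends on signals from stellate cells, endothelial cells and hepatocytes.

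Of 19505 genes tested, 569 (2.92%) differed between HGF and Ito cultures at a limma adjusted p under 0.05, the threshold for every gene said here to have passed. HGF cultures were higher in 368 (1.89%) and lower in 201 (1.03%). The difference was at least 2-fold in 338 of the genes that rose and in 155 of those that fell, and at least 4-fold in 123 and 51. In 536 of the 569 genes, the 3 HGF values and the 3 Ito values did not overlap, which was so for 3557 of all genes tested. The median difference over all genes was -0.08 on the log2 scale. All levels are log2 signals of the array and all differences are HGF minus Ito on that scale, so 1 unit is a factor of 2, and the error given with a difference is the standard error of the fit. A level near 5.5 is background, since the probe sets made to match no transcript had a mean of 5.45 with HGF and 5.55 with Ito cells. In 123 of the genes that rose, the Ito mean lay under that level, and in 29 of those that fell, the HGF mean did.

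**Figure D1:**
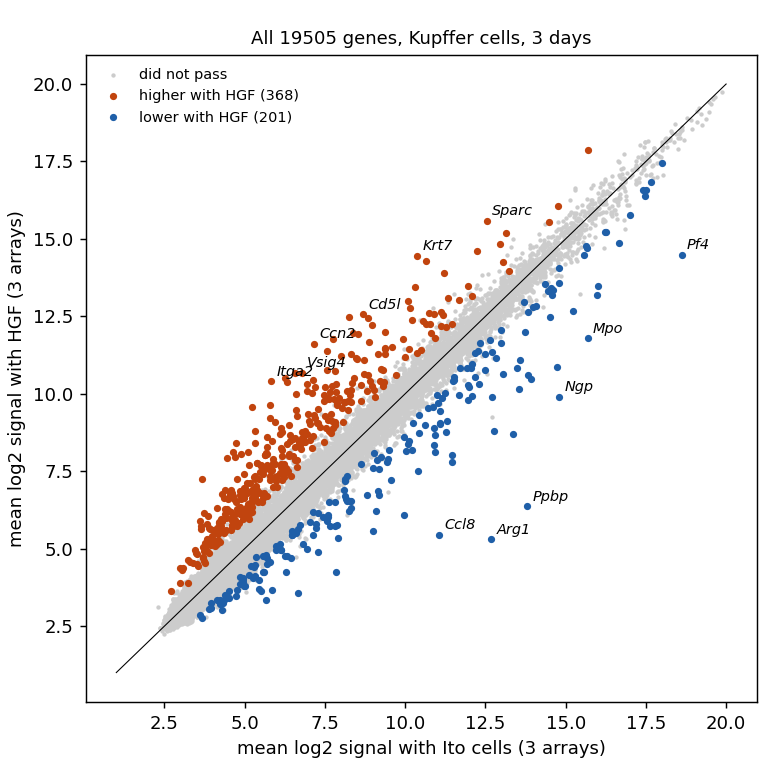
Each point is a gene, with its mean log2 signal in the 3 Ito arrays across and in the 3 HGF arrays upwards; the line marks equal levels. Coloured points are the 368 genes that passed as higher with HGF and the 201 that passed as lower, and Ppbp, Arg1 and Ccl8 lie farthest below the line.

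The arrays within a group were alike, with correlations over all genes from 0.9796 to 0.9893 among the HGF arrays and from 0.9921 to 0.9938 among the Ito arrays, against 0.9767 to 0.9865 between the groups. The HGF cultures varied more, with a median SD over genes of 0.324 against 0.239 for the Ito cultures. Counts moved with single arrays: without HGF replicate 1, 188 genes passed as higher and 143 as lower, and without Ito replicate 1, 328 passed as higher and 98 as lower. With the spread taken from the 6 arrays alone, 240 genes passed as higher and 124 as lower, and without 3 arrays of other groups that stood apart (MCSF replicate 1 and HGF replicate 2 of Kupffer cells at 1 day, and MCSF replicate 3 of monocytic macrophages at 3 days), 614 and 488. The Kupffer cultures with MCSF alone of this time had a mean level of the cell cycle genes of 6.46 to 6.62, against 11.18 to 11.55 with HGF and 10.87 to 11.14 with Ito cells.

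Markers of macrophages were high in all 6 cultures. Averaged over 15 core macrophage genes, the level lay between 14.17 and 14.42 with HGF and between 14.66 and 14.75 with Ito cells, and 2 of these genes passed, both lower with HGF. Mpeg1, which encodes a pore-forming protein of macrophages, fell by 1.27 ± 0.21, and Ctss, a lysosomal protease, fell by 0.83 ± 0.19; with the spread of the 6 arrays alone their adjusted p were 0.0613 and 0.0902. Adgre1, the gene of the surface antigen named in the titles, read 13.81, 12.81 and 13.22 with HGF and 13.15, 13.37 and 12.97 with Ito cells. Csf1r, the MCSF receptor, read 16.11, 15.54 and 15.86 with HGF and 16.20, 15.69 and 15.95 with Ito cells. The groups overlapped for both, and neither passed (adjusted p = 0.932 and 0.912). Clec4f, the most specific marker of mouse Kupffer cells, lay under background in every culture, from 3.31 to 3.60 with HGF and from 3.43 to 3.72 with Ito cells. Timd4, a receptor for dying cells and a marker of long-lived Kupffer cells, lay between 5.24 and 5.68 over the 6 arrays, against a mean of 9.60 with MCSF alone.

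The Kupffer cell identity list held 20 measured genes, of which 6 rose with HGF and 1 fell, with a median difference of 0.45 against -0.08 over all genes. Vsig4, the complement receptor by which Kupffer cells take up bacteria, read 11.39, 10.07 and 10.59 with HGF and 6.57, 6.77 and 6.99 with Ito cells. Cd5l, a secreted protein that keeps macrophages alive, read 13.26, 11.82 and 12.63 against 8.48, 8.95 and 8.63. Hpgd, which breaks down prostaglandins, read 10.33, 9.47 and 9.15 against 5.24, 5.97 and 6.18. In each of these genes the lowest HGF culture was far above the highest Ito culture. The differences were 3.91 ± 0.29 for Vsig4 (15.03-fold, adjusted p = 5.59e-13), 3.88 ± 0.51 for Cd5l (14.7-fold, adjusted p = 9.12e-07) and 3.85 ± 0.41 for Hpgd (adjusted p = 8.79e-09). The scavenger receptor gene Marco read 10.02, 8.42 and 9.23 with HGF and 5.77, 6.21 and 5.39 with Ito cells, a difference of 3.44 ± 0.71 (adjusted p = 0.00173). Spic, a transcription factor of macrophages that recycle iron, was named after its values were seen and differed by 2.87 ± 0.60, with HGF replicate 1 at 11.42 and the other HGF cultures at 8.83 and 8.21. Without that replicate it did not pass (1.91, adjusted p = 0.106).

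The identity genes did not move as a block. Folr2, a folate receptor of resident macrophages, fell with HGF: it read 12.49, 12.46 and 12.51 against 14.58, 14.39 and 14.57 with Ito cells (-2.03 ± 0.39, adjusted p = 0.000533). The regulators Nr1h3, which encodes LXR alpha, and Id3 differed by 0.87 ± 0.36 and 1.98 ± 0.68 and did not pass (adjusted p = 0.262 and 0.124), although Nr1h3 passed at 0.0313 without the 3 arrays that stood apart. Set beside the other Kupffer cultures of the same time, Vsig4 had a mean of 9.93 with MCSF alone and 3.59 with CD146 cells. Marco had a mean of 15.83 with MCSF alone, above every HGF and Ito culture, and 5.20 with CD146 cells. Cd5l, with 7.98 and 8.03 in these groups, was highest with HGF among the Kupffer cultures of this time. In monocytic macrophages with HGF and with Ito cells, Cd5l had means of 12.30 and 12.91, and Hpgd of 10.55 and 10.49. Cdh5, another member that rose, was under background there, at 3.65 and 3.62.

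The genes with the largest rise, in the order of the fitted differences, were Itga2, Ccn2, Perp, Ddah1, Cxcl10, Fscn1, Krt7, F3, Tagln, Vsig4, Cd5l and Hpgd. Itga2, a collagen-binding integrin subunit, read 10.50, 10.02 and 10.70 with HGF and 5.48, 6.14 and 5.85 with Ito cells. The groups were separated by nearly 4 units, and the difference was 4.58 ± 0.39 (23.9-fold, adjusted p = 2.37e-11). Perp, a protein of desmosomes that p53 induces, differed by 4.32 ± 0.35, but its Ito mean lay under background, and with that level set at background it was at least 15.3-fold higher (3.93), which puts it below Tagln in that order. Ddah1, which degrades an inhibitor of nitric oxide synthesis, differed by 4.24 ± 0.43, and Fscn1, which bundles actin, by 4.12 ± 0.53. Cxcl10, a chemokine for T cells that interferon induces, read 14.01, 11.14 and 12.28 against 8.75, 7.54 and 8.51. Its HGF cultures spread over almost 3 units, all above the Ito cultures (4.21 ± 0.61, adjusted p = 5.85e-06).

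**Figure D2:**
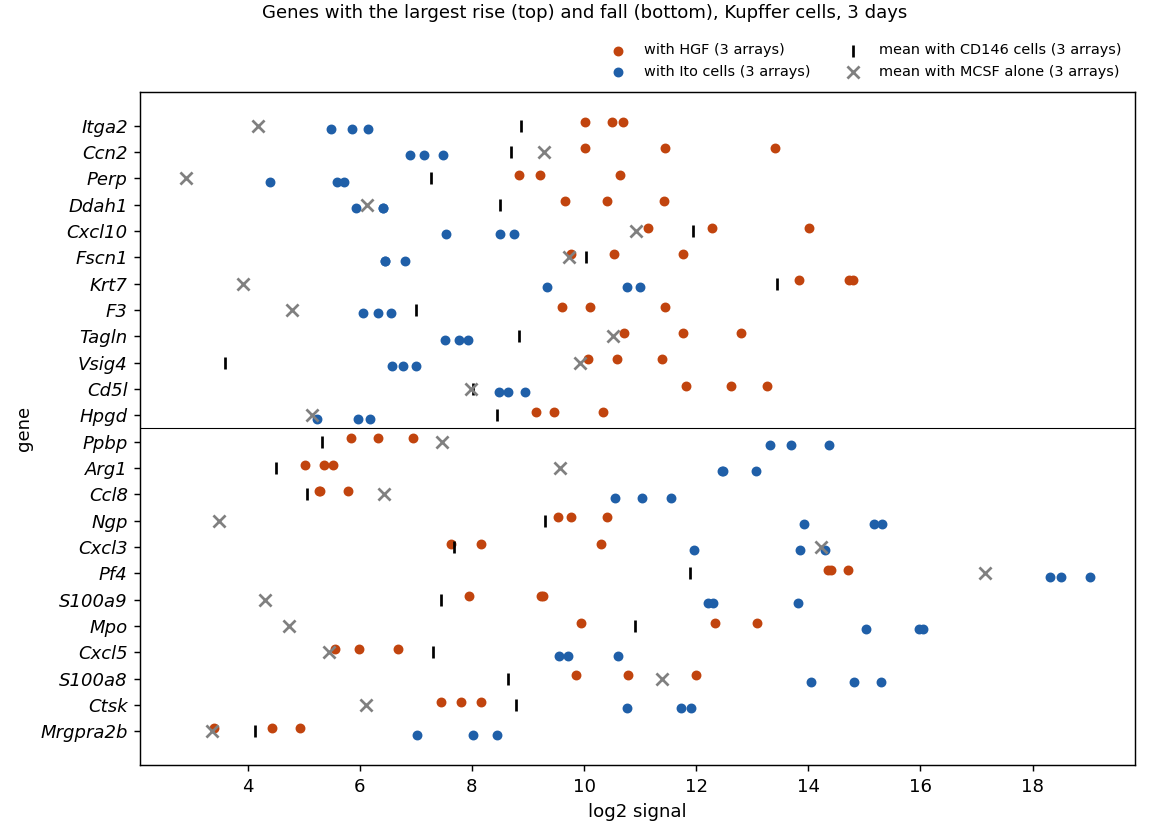
Log2 signal of the 12 genes with the largest rise (top) and the 12 with the largest fall (bottom), with a point for each of the 3 HGF and 3 Ito arrays; bars and crosses are the means of 3 arrays with CD146 cells and with MCSF alone. The HGF and Ito points do not overlap in any of these genes, which were chosen for that.

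Epithelial genes rose together. Of 13 measured genes of the cholangiocyte and epithelial list, 9 rose with HGF and none fell, with a median difference of 2.24; the same 9 was the count with any of the 6 arrays left out. Krt7, the keratin of bile duct cells, read 14.72, 13.84 and 14.80 with HGF and 11.002, 10.76 and 9.33 with Ito cells. Krt8 and Krt18, which pair into the filaments of simple epithelia, differed by 3.60 ± 0.48 and 3.57 ± 0.50 (adjusted p = 1.34e-06 and 3.55e-06). Cdh1, the gene of E-cadherin, read 13.15, 11.45 and 12.09 against 9.23, 9.16 and 8.49. All HGF cultures were above all Ito cultures in these 4 genes, and Krt7 differed by 4.09 ± 0.50 (17.0-fold, adjusted p = 2.26e-07). Krt19 differed by 2.53 ± 0.47 and Epcam, an adhesion molecule of bile duct cells, by 1.98 ± 0.28, the latter at least 3.77-fold when the Ito level is set at background. Sox9, a bile duct transcription factor, and Cftr, the chloride channel of bile ducts, lay under background in both groups and did not pass. The mean level of the list was 9.13 to 10.32 with HGF, 7.20 to 7.64 with Ito cells, 7.96 to 8.46 with CD146 cells and 3.69 to 3.95 with MCSF alone. The Ito cultures thus stood above the MCSF cultures too. The part of admixed epithelial cells in these differences was not tested, and in bulk RNA fewer cells of a type and less RNA per cell cannot be told apart.

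Genes of mesothelial cells, which line the liver surface and share keratins with bile ducts, were looked up after the values were seen. Of 9 measured, 4 rose and 1 fell, with a median difference of 1.06. Msln, mesothelin, read 8.23, 7.62 and 7.99 with HGF and 5.12, 4.59 and 4.36 with Ito cells, a difference of 3.26 ± 0.25 (adjusted p = 3.24e-12), or at least 5.29-fold with the Ito level set at background. Upk1b, a uroplakin, was at least 3.39-fold higher on the same basis. Upk3b, another uroplakin that rose, lost its call under 6 of 15 alternatives. Wt1, the defining transcription factor of this layer, lay under background in both groups. The list's mean was 5.94 to 6.68 with HGF and 5.04 to 5.39 with Ito cells. It was 6.77 to 7.19 with CD146 cells, above every HGF culture, and 3.68 to 3.74 with MCSF alone. The part of mesothelial cells was not tested.

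Genes of stellate cells and their matrix were higher with HGF than in the cultures to which stellate cells had been added. Of 29 measured genes of the list, 13 rose with HGF and none fell, with a median difference of 0.88, and 8 rose without HGF replicate 1. Tagln, a protein of contractile filaments, read 12.79, 11.77 and 10.72 with HGF and 7.52, 7.93 and 7.77 with Ito cells. Acta2, smooth muscle actin and the usual sign of an activated stellate cell, read 14.36, 13.37 and 13.96 against 11.31, 11.18 and 11.12. Lox, which crosslinks collagen, read 11.37, 10.07 and 9.90 against 7.49, 7.07 and 6.81. The HGF cultures lay above the Ito cultures in each, and replicate 1 was the highest of them. The differences were 4.02 ± 0.40 for Tagln (adjusted p = 1.7e-09), 2.69 ± 0.35 for Acta2 (6.46-fold, adjusted p = 9.12e-07) and 3.33 ± 0.33 for Lox (adjusted p = 2.38e-09). Sparc, a matrix glycoprotein, differed by 3.05 ± 0.49, with 16.18, 15.08 and 15.51 against 12.13, 12.73 and 12.78.

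Collagen and the genes that define quiescent stellate cells gave a weaker picture. Col1a1 read 9.16, 7.07 and 7.70 with HGF and 6.73, 6.03 and 5.74 with Ito cells, a difference of 1.81 ± 0.42 (adjusted p = 0.00592). It did not pass without HGF replicate 1 (1.22, adjusted p = 0.195), without Ito replicate 3 (adjusted p = 0.0677) or with the spread of the 6 arrays alone (adjusted p = 0.0879). Timp1, an inhibitor of matrix proteases, differed by 1.37 ± 0.37 (adjusted p = 0.0285) and lost its call without HGF replicate 1 (adjusted p = 0.237) or without Ito replicate 1, 2 or 3 (adjusted p = 0.059, 0.0878 and 0.116). Lrat, the enzyme that stores vitamin A in stellate cells, was under background in both groups. Des, the gene of desmin, read 6.16, 3.67 and 5.08 with HGF and 3.68, 3.78 and 2.90 with Ito cells, so only HGF replicate 1 lay above background; it passed (adjusted p = 0.00725), but not without that replicate (0.256) or without Ito replicate 3 (0.106). Pdgfrb, the growth factor receptor of stellate cells, read 7.12, 5.53 and 6.27 against 5.57, 5.26 and 5.86, which overlapped (adjusted p = 0.241); without HGF replicate 2 it passed at 0.0296. The mean level of the list was 7.54 to 8.47 with HGF, 6.69 to 6.92 with Ito cells, 7.55 to 7.70 with CD146 cells and 7.28 to 7.64 with MCSF alone. The part of stellate cells in these differences was not tested.

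Several of the genes that rose most are textbook targets of YAP and TEAD, which carry signals of cell shape and stiffness to the nucleus. Of a published signature of 22 such genes, which was taken up after the values were seen, 8 rose with HGF and none fell (median difference 0.74), and 7 to 10 rose with each of the 6 arrays left out in turn. Promoters from RefSeq (GRCm38.p6, 250 bases before to 50 after the start) were matched for 15 of the 22, with no entry for Ccn2. The letters GGAATG, the core of the TEAD site, were searched on either strand and stood in 7 of these 15 (46.7%) and in 5 of the 7 that rose and had a promoter (71.4%), against 15.3% of the 15691 measured genes with a promoter and 14.7% of all 32851 promoters. The promoters of F3 and Igfbp3, which also rose, held no match. Below are the promoters of 3 members that rose, picked from those with a match, which is in capitals. CATTCC is the match on the other strand. All 3 genes lie on the minus strand, at chr19:36119795-36120094, chr3:145649936-145650235 and chr7:25788684-25788983.
Ankrd1: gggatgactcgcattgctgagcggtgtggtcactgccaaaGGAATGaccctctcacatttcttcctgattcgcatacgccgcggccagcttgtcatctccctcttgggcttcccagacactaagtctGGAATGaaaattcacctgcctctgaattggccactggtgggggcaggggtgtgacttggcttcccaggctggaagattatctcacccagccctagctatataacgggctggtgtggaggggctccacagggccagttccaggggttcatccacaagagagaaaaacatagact
Ccn1: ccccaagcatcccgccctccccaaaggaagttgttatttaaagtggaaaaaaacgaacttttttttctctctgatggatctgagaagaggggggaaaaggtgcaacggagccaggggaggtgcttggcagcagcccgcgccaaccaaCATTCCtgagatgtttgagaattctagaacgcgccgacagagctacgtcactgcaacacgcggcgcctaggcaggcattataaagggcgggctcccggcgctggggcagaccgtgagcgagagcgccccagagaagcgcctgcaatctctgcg
Axl: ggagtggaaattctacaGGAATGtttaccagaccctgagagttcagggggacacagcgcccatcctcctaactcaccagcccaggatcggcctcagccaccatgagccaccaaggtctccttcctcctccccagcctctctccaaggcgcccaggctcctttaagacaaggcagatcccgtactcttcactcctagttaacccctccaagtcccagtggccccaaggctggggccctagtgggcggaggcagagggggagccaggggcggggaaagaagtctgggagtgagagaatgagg
The matches begin 210 and 123 bases before the start of Ankrd1, 103 before that of Ccn1 and 233 before that of Axl. The matches describe these windows only. The list was itself drawn up from YAP and TEAD targets, so its high share of motifs can follow from that choice. That share does not bear on YAP or TEAD activity in these cultures, which was not tested.

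Ccn2, a matricellular growth factor, read 13.40, 10.01 and 11.45 with HGF and 7.48, 7.15 and 6.89 with Ito cells. Its relative Ccn1 read 14.86, 13.64 and 14.32 against 10.52, 10.95 and 10.46. Ankrd1, a stress-responsive cofactor, read 11.73, 11.76 and 12.27 against 8.74, 8.49 and 8.32. No HGF culture reached down to an Ito culture in these genes, although the Ccn2 level differed by more than 3 units among the HGF cultures. The differences were 4.45 ± 0.58 for Ccn2 (21.9-fold, adjusted p = 9.12e-07), 3.63 ± 0.67 for Ccn1 (adjusted p = 0.00034) and 3.40 ± 0.32 for Ankrd1 (adjusted p = 5.13e-10). Axl, a receptor for dying cells, differed by 2.99 ± 0.46, and F3, tissue factor, which starts blood clotting, by 4.07 ± 0.38 (adjusted p = 3.86e-10). Of the list's members without a call, Myof differed by -0.25 ± 0.24, Lats2 by -0.57 ± 0.42 and Amotl2 by 0.92 ± 0.30 (adjusted p = 0.752, 0.645 and 0.103), and Amotl2 passed without HGF replicate 2 (0.0404). With MCSF alone Ccn2 had a mean of 9.29 and Ankrd1 of 9.10, between the HGF and the Ito cultures.

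Transcripts of other liver cells were also higher in part. Of 25 measured genes of sinusoidal endothelium, 4 rose with HGF: Emcn (at least 7.35-fold with the Ito level set at background, adjusted p = 8.45e-10), an endothelial surface mucin, Cdh5 (3.23 ± 0.55, adjusted p = 0.000116), endothelial cadherin and also a member of the Kupffer list, Ptprb (at least 1.54-fold on the same basis) and Lyve1, which lay near or under background in every culture. Lyve1 lost its call without HGF replicate 1 or 3 or Ito replicate 1 (adjusted p = 0.114, 0.0521 and 0.0575). Stab2 and Clec4g, which define the sinusoidal type, lay under background in both groups, while Pecam1 differed by 0.03 ± 0.37. Averaged over the list, the level was 5.73 to 6.44 with HGF and 5.46 to 5.66 with Ito cells. Of 20 hepatocyte genes, 5 rose: Apob, the protein of very low density lipoprotein, differed by 3.79 ± 0.38 (adjusted p = 2.42e-09) and Rbp4, the carrier of retinol, by 2.92 ± 0.25 (adjusted p = 2.37e-11). Rbp4 read 8.63, 8.62 and 8.59 against 6.13, 5.65 and 5.30. Alb, albumin, was named after its values were seen and did not follow: it read 12.02, 14.18 and 12.71 with HGF and 13.16, 12.24 and 12.89 with Ito cells. The 8.63 mean of Alb with CD146 cells and 4.58 with MCSF alone were far lower. The hepatocyte list had mean levels of 6.14 to 6.83 with HGF and 5.49 to 5.92 with Ito cells, and the part of residual endothelial cells and hepatocytes was not tested.

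**Figure D3:**
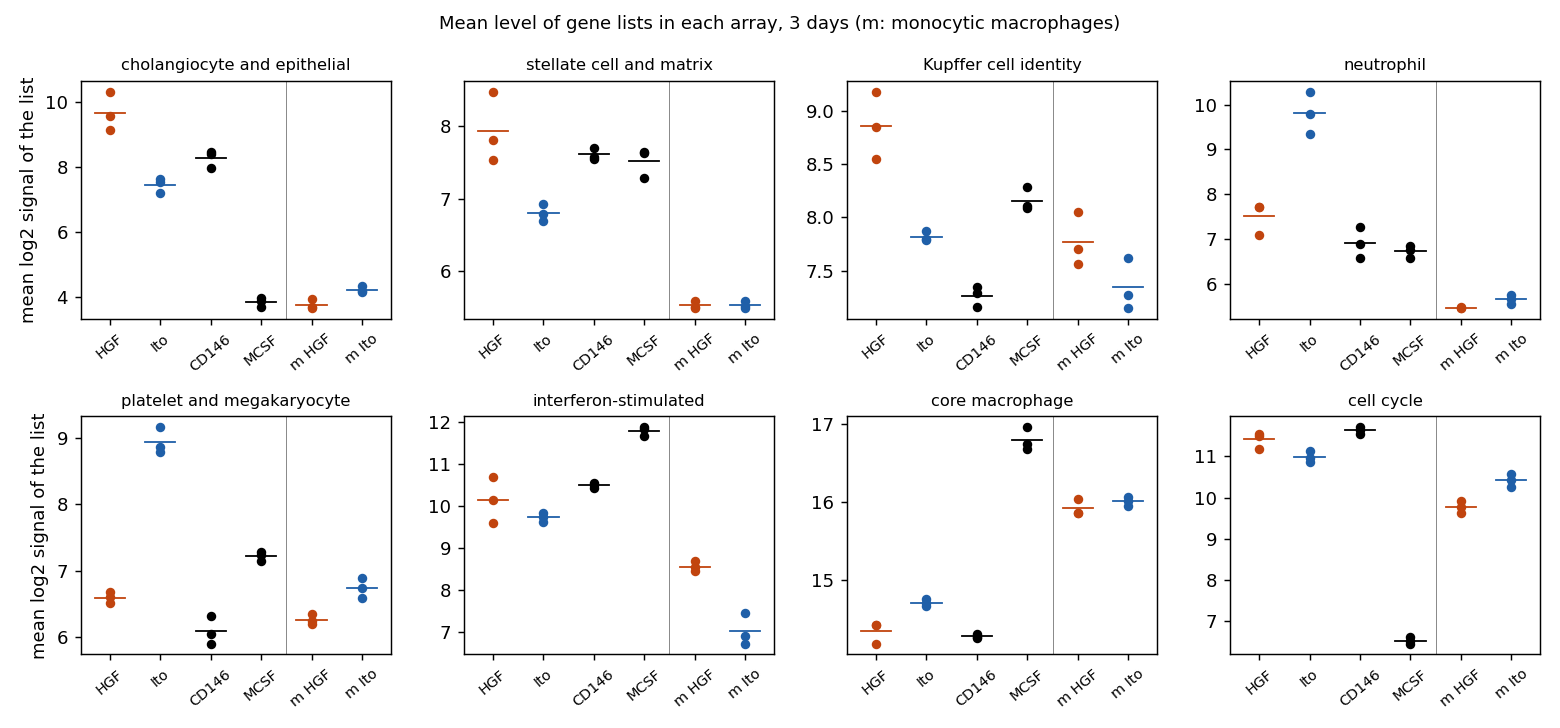
Mean log2 signal over the measured genes of 8 lists in each array of 3 days; points are arrays, horizontal lines are means of 3 arrays, and the axis of each panel has its own range. Among the Kupffer arrays, those with HGF lie above those with Ito cells in the epithelial, stellate, Kupffer and cell cycle panels, although no single cell cycle gene passed. The HGF arrays lie below the Ito arrays in the neutrophil, platelet and core macrophage panels. Monocytic HGF and Ito arrays are drawn as well, and in the epithelial panel their order is reversed.

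The genes with the largest fall were Ppbp, Arg1, Ccl8, Ngp, Cxcl3, Pf4, S100a9, Mpo, Cxcl5, S100a8, Ctsk and Mrgpra2b. Arg1, arginase of alternatively activated macrophages, read 5.52, 5.37 and 5.01 with HGF, which is background, and 12.47, 12.48 and 13.07 with Ito cells. The difference was -7.37 ± 0.59 (adjusted p = 6.44e-12), and Ito cultures were at least 147-fold higher with the HGF level set at background. Arg1 had a mean of 9.57 with MCSF alone and 4.50 with CD146 cells. Of 22 measured genes of alternative activation, only Arg1 and Chil3 passed, both lower with HGF, and the median difference was -0.43. Chil3 differed by -2.15 ± 0.40. The mean level of the list, Arg1 included, was 8.47 to 8.84 with HGF and 9.24 to 9.45 with Ito cells. Mrc1, the mannose receptor, read 14.24, 14.45 and 14.71 against 15.19, 16.17 and 15.30 with Ito cells and did not pass (adjusted p = 0.354). Nos2, the nitric oxide synthase of inflammatory macrophages, also passed as lower (adjusted p = 0.000993). Its HGF mean lay under background, which leaves the Ito cultures at least 1.79-fold higher.

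Of the 12 genes with the largest fall, 5 encode chemokines. Ppbp, the precursor of a platelet chemokine, read 6.94, 5.84 and 6.32 with HGF and 14.36, 13.31 and 13.70 with Ito cells. Pf4, platelet factor 4, read 14.71, 14.35 and 14.41 against 18.31, 19.02 and 18.51. Ccl8, a chemokine for monocytes and T cells, read 5.27, 5.28 and 5.79 against 10.56, 11.03 and 11.56. The HGF cultures stood far below the Ito cultures in all of these genes. Ppbp differed by -7.42 ± 0.50 (171-fold, adjusted p = 7.45e-14), Pf4 by -4.12 ± 0.36 (17.4-fold, adjusted p = 4.38e-11) and Ccl8 by -5.60 ± 0.50, at least 44.97-fold with the HGF level at background. The rest of the platelet and megakaryocyte list differed by less: Itga2b, Gp9, Gp5 and Tubb1, which define that lineage, had differences from -0.76 to -0.46 and did not pass, and all but Itga2b were under background. The 6 genes of this list had a mean level of 6.50 to 6.68 with HGF and 8.80 to 9.17 with Ito cells. Cxcl3 and Cxcl5, which attract neutrophils, fell by 4.68 ± 0.69 and 3.88 ± 0.42. Cxcl2, named after its values were seen, read 13.71, 6.82 and 7.26 against 13.09, 11.55 and 13.47, so HGF replicate 1 was as high as the Ito cultures (-3.44 ± 1.18, adjusted p = 0.126). Without that array the difference was -5.67 and passed (adjusted p = 0.00102).

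Among 24 pro-inflammatory cytokines and chemokines, 4 fell with HGF and 1, Cxcl10, rose, with a median difference of -0.51. The fourth gene to fall beside Cxcl3, Cxcl5 and Nos2 was Lcn2, lipocalin, at -3.42 ± 0.79 (adjusted p = 0.00554). It missed the threshold without HGF replicate 1 or Ito replicate 1 (adjusted p = 0.0542 and 0.0552). Tnf read 16.55, 12.36 and 12.73 with HGF and 13.23, 11.63 and 12.85 with Ito cells. Il1b read 8.28, 4.78 and 4.82 against 5.81, 5.47 and 5.83. In both cytokines HGF replicate 1 stood above the other HGF cultures, and neither passed (adjusted p = 0.577 and 0.939). Il6 and Il10 differed by 0.91 ± 0.61 and -0.01 ± 0.41, and Ccl2, the main monocyte chemokine, by -0.97 ± 0.58 (adjusted p = 0.584, 0.997 and 0.517). Ccl2 passed at 0.00191 without the 3 arrays that stood apart.

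Genes of neutrophils and their precursors were lower with HGF than with Ito cells. Of 12 measured genes of the neutrophil list, 8 fell and none rose, with a median difference of -1.60; 7 or 8 fell with any of the 6 arrays left out. Ngp, a granule protein of maturing neutrophils, read 9.77, 9.54 and 10.41 with HGF and 15.17, 13.93 and 15.31 with Ito cells. S100a9, a subunit of calprotectin, read 7.95, 9.22 and 9.26 against 12.21, 12.30 and 13.82. Mpo, myeloperoxidase, read 9.95, 12.33 and 13.09 against 16.04, 15.03 and 15.98. Every HGF culture lay below every Ito culture, and HGF replicate 1 was the lowest of the HGF cultures in S100a9 and Mpo. The differences were -4.90 ± 0.45 for Ngp (adjusted p = 2.88e-10), -3.97 ± 0.46 for S100a9 (adjusted p = 8.49e-08) and -3.89 ± 0.54 for Mpo (14.8-fold, adjusted p = 3.1e-06). S100a8, the other calprotectin subunit, fell by 3.84 ± 0.57.

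Genes of early granulocytes, Mpo among them, fell as well. Of 12 measured genes of granulocyte progenitors, listed after the values were seen, 6 fell, with a median difference of -1.60 and the same count with any of the 6 arrays left out. The granule proteases Elane and Prtn3 fell by 3.42 ± 0.50 and 3.23 ± 0.43 (adjusted p = 7.16e-06 and 1.32e-06). Myb, a transcription factor of progenitors, fell by 2.45 ± 0.43. Other genes of the neutrophil list were dim: Cxcr2, Mmp9, Retnlg, Ltf and Camp lay under background in both groups. S100a8 and S100a9 were not dim, with means of 14.72 and 12.78 with Ito cells. Of the 8 genes that fell, 2 lay under background in both groups, Ltf among them. The mean level of the neutrophil list was 7.09 to 7.72 with HGF, 9.36 to 10.29 with Ito cells and 5.46 to 5.76 in the monocytic macrophages with either addition. In Kupffer cultures it was 6.57 to 7.26 with CD146 cells and 6.59 to 6.84 with MCSF alone, so the Ito cultures were the high group. The granulocyte progenitor list read 7.68 to 8.89 with HGF and 9.73 to 10.49 with Ito cells. It read 7.27 to 8.07 with CD146 cells and 5.54 to 5.88 with MCSF alone. Kit and Cd34, genes of stem and progenitor cells, differed by -0.71 ± 0.51 and 1.18 ± 0.40 and did not pass, although Cd34 did without HGF replicate 2 (adjusted p = 0.0444). The part of granulocyte precursors in the cultures was not tested. Monocyte genes moved less: of 12 measured, 1 rose and 2 fell, and Ly6c2, a marker of inflammatory monocytes, read 14.59, 15.51 and 15.83 against 17.11, 16.26 and 17.18 (adjusted p = 0.0644). It passed without HGF replicate 3 (adjusted p = 0.04997), without Ito replicate 2 (0.0456) and without the 3 arrays that stood apart (0.0322). Ccr2, the receptor of Ccl2, read 12.12, 13.33 and 13.33 against 12.18, 11.67 and 12.11 and did not pass.

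Some genes of lipid uptake and of the response to low oxygen fell with HGF. Of 14 measured genes of the LXR and lipid list, 4 fell and none rose, with a median difference of -0.04 and 2 falls without HGF replicate 1. Fabp5, a fatty acid binding protein, read 12.73, 12.90 and 12.38 with HGF and 14.92, 15.47 and 15.26 with Ito cells (-2.55 ± 0.32, adjusted p = 4.91e-07). Cd36, the fatty acid and scavenger receptor, fell by 0.91 ± 0.21 (adjusted p = 0.00467). The direct LXR targets Abca1 and Abcg1, which export cholesterol, differed by -0.28 and 0.20 and did not pass. Of 20 genes of glycolysis and hypoxia, 3 fell and none rose, with a median difference of -0.39. Egln3, an oxygen sensor, read 8.76, 8.14 and 7.42 against 10.90, 10.28 and 11.65 (-2.84 ± 0.41, adjusted p = 5.75e-06). Ero1a, an oxidase of protein folding that hypoxia induces, fell by 2.46 ± 0.48. Hilpda, a lipid droplet protein that hypoxia induces, was outside this list and read 10.58, 9.53 and 9.62 against 12.71, 12.64 and 12.75. It fell by 2.79 ± 0.34 (adjusted p = 3.22e-07), while no gene of a glycolytic enzyme on the list passed. Ctsk, a protease that degrades collagen, differed more than any other gene of the lysosome list, with 8.16, 7.45 and 7.81 against 11.91, 10.77 and 11.72 (-3.66 ± 0.30, adjusted p = 8.59e-12).

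For the HGF pathway itself, the receptor and ligand genes come first. Met, the HGF receptor, read 10.68, 10.13 and 10.61 with HGF and 10.67, 10.01 and 10.48 with Ito cells. Hgf read 7.70, 7.67 and 7.44 against 8.04, 7.92 and 7.75. Met lay above background, its groups overlapped, and the difference of 0.08 ± 0.34 did not pass (adjusted p = 0.962). The Hgf values did not overlap and were lower in the cultures given the protein, but the difference of -0.30 ± 0.34 did not pass (adjusted p = 0.8). Of 14 measured genes of HGF and its activation, 3 rose (against 1.89% of all genes), with a median difference of 0.09, and 1 rose without HGF replicate 1 or without Ito replicate 2. Spint2, an inhibitor of the proteases that activate HGF, had the smallest adjusted p of them (1.52e-05) and was at least 3.37-fold higher with the Ito level at background. The other members to rise were Plat, a plasminogen activator, and St14, the gene of matriptase. Plat (adjusted p = 0.0136) lost its call without HGF replicate 1, Ito replicate 1 or Ito replicate 2 (0.191, 0.0928 and 0.0676). St14 (adjusted p = 0.05, just under the threshold) lost its call under 9 of 15 alternatives, among them the fits without HGF replicate 1 or 3 or Ito replicate 2 or 3 (0.418, 0.19, 0.221 and 0.242).

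Lists of responses downstream of growth factors came next. Of 24 genes of ERK feedback and immediate early response, 1 rose, the growth factor gene Hbegf, at least 1.02-fold with its Ito level set at background, and it missed the threshold without HGF replicate 1 or Ito replicate 1 (adjusted p = 0.0518 and 0.0517). Egr1 and Dusp1, named after their values were seen, differed by -2.63 ± 0.78 and -2.22 ± 0.67 and did not pass (adjusted p = 0.0536 and 0.0605). Both are close to the threshold: Egr1 passed under 7 of 15 alternatives and Dusp1 under 4, with adjusted p from 0.00366 to 0.0487 over both, among them the fits without HGF replicate 1 (0.0215 and 0.0285), without the dimmest genes (0.0426 and 0.0487) and without the 3 arrays that stood apart (0.0124 and 0.0146). Of 21 genes of the TGF-beta and BMP response, 3 rose, Ccn2 and Ccn1 above and Bmp4 under background, with a median of 0.61. Tgfb1 itself read 13.99, 13.74 and 13.78 against 14.14, 13.98 and 14.34 (adjusted p = 0.552). Bmp4 lost its call without HGF replicate 1 or 3 or Ito replicate 1 (adjusted p = 0.186, 0.054 and 0.0806).

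Broad programmes of growth and metabolism showed no called gene or few. None of 33 cell cycle genes, of 22 of the mitochondrial respiratory chain, of 16 of antigen presentation or of 12 of the unfolded protein response passed. The medians of these lists were 0.37, -0.05, 0.01 and 0.00. Mki67, a marker of dividing cells, was high in all cultures, with 15.98, 15.44 and 16.02 with HGF and 15.72, 15.15 and 15.45 with Ito cells (adjusted p = 0.883). Of 23 interferon-stimulated genes, 2 rose, Ifit3 and Gbp2, with a median difference of 0.47. Neither kept its call when HGF replicate 1 (adjusted p = 0.24 and 0.238), HGF replicate 3 (0.28 and 0.16), Ito replicate 1 (0.204 and 0.0635) or Ito replicate 3 (0.187 and 0.103) was left out. In B cell, dendritic cell and erythroid lists no gene passed, and of 12 T and NK cell genes 2 fell, Nkg7 near background and Il7r.

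The same comparison in monocytic macrophages was made in the series as well, and the difference between the cell types was tested. In monocytic macrophages, 886 genes (4.54%) passed, 541 higher with HGF (2.77%) and 345 lower (1.77%). Of the genes that rose in Kupffer cells, 31 rose there too, which is 8.42% of the Kupffer and 5.73% of the monocytic genes. Of those that fell, 33 were shared, 16.4% and 9.57%. The difference between the cell types, tested in the same fit, passed for 375 genes (1.92%), of which 212 (1.09%) were more positive and 163 (0.836%) more negative in Kupffer cells. Without Ito replicate 1 of the Kupffer cells the latter count was 108, and without Ito replicate 1 of the monocytic cells 97.

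**Figure D4:**
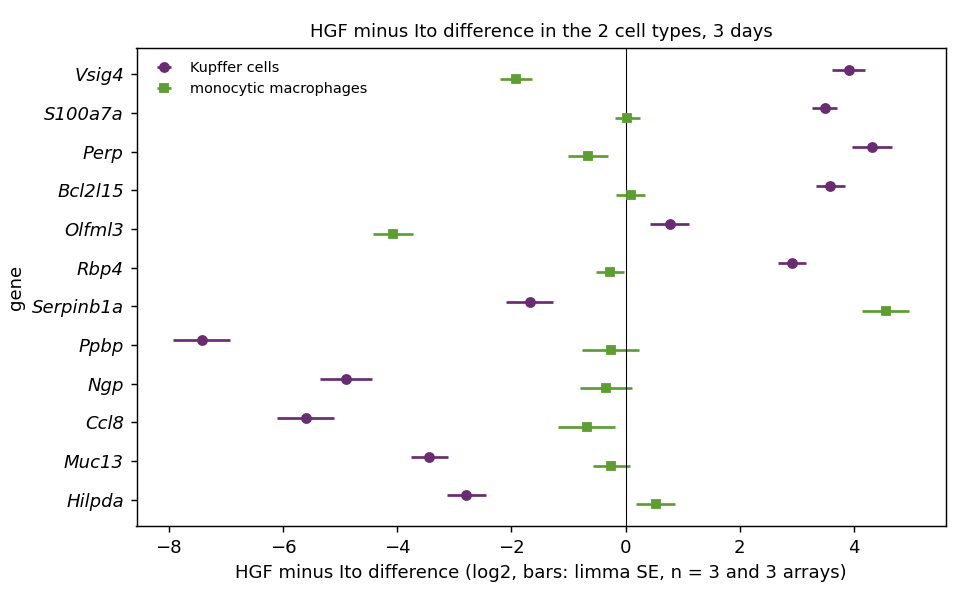
HGF minus Ito difference (log2) in Kupffer cells (circles) and monocytic macrophages (squares) for the 12 genes with the smallest adjusted p of the difference between cell types; bars are standard errors of the limma fit, with 3 and 3 arrays behind each point. Vsig4 and Serpinb1a lie on opposite sides of 0 in the cell types.

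Vsig4 changed in opposite directions, from 14.31 ± 0.44 with Ito cells to 12.39 ± 0.32 with HGF in monocytic macrophages (SD, n = 3 each), a difference of -1.91 that passed there (limma adjusted p = 4.1e-05). Serpinb1a, an inhibitor of neutrophil proteases, did so the other way, at -1.68 in Kupffer cells and 4.56 in monocytic macrophages. In Kupffer cells its call was lost without HGF replicate 1 or Ito replicate 1 (adjusted p = 0.08 and 0.0541). For Ppbp, Ngp, Perp, S100a7a, Bcl2l15 and Muc13 the monocytic arrays were at background with either addition, with means from 2.72 to 4.82. Their contrast between cell types therefore rests on the Kupffer arrays. Of 23 interferon-stimulated genes, 18 rose with HGF in monocytic macrophages, with a median difference of 1.78, against the 2 in Kupffer cells. The contrast of cell types passed for 6 of them (Irf7, Mx2, Oas1a, Oas3, Usp18 and Xaf1), all more negative in Kupffer cells. It also passed for 7 of 29 stellate genes, all more positive in Kupffer cells, among them Tagln, Acta2 and Lox. It passed for 6 of 12 neutrophil genes too, all more negative. In monocytic macrophages the stellate list had means of 5.53 with HGF and 5.54 with Ito cells, near background. The neutrophil list had 5.47 and 5.66. Some members stood above background there, such as Acta2 (7.08 and 7.62) and S100a8 (7.56 and 8.09). For members at background, such as Ngp, the contrast rests on the Kupffer arrays and cannot show a different response of the cell types. The epithelial list had 9 rises in Kupffer cells and 1 fall in monocytic macrophages, and the contrast passed for 9 of its 13 genes. In monocytic macrophages its mean level was 3.65 to 3.93 with HGF and 4.16 to 4.33 with Ito cells, under background with both.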

How the data were processed

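Total RNA of 48 cultures was lysed in QIAZOL, extracted with a Qiagen kit, labelled as biotinylated cRNA and hybridised to Affymetrix mouse arrays, per the labels' protocols. The deposited values are 1 log2 signal for each probe set and array, which the authors made with RMA in the Transcriptome Analysis Console, per the submitters' processing notes; versions, genome build and whether all arrays were normalized together are not given in the sources used here. Values run from 0.88 to 19.93. RMA shrinks differences of dim probe sets, and the number of arrays limits the precision.

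The tables list 28846 probe sets, of which 6640 are controls and 2634 others carry no gene symbol; none of these was tested. Where 55 genes had several probe sets, the one with the highest mean was used, which left 19505 genes with no filter on level. A mean per group was fitted over all 48 arrays with limma 3.58.1 (R 4.3.3, with the package data.table at version 1.17.8), so that all groups share the estimate of the spread, followed by eBayes. Tests were two-sided, with Benjamini-Hochberg adjustment over all genes of a contrast and a threshold of 0.05. The contrast of cell types is the Kupffer minus the monocytic difference in the same fit. The script was tested on simulated data.

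The comparison and its 33 gene lists were chosen with earlier results of these data known, and 3 further lists (YAP and TEAD targets, granulocyte progenitors, mesothelial cells) after the values were seen. Lists are described by counts and medians. An old list symbol (Ero1l, now Ero1a) was updated through RefSeq. Named genes were the 12 with the largest rise and fall among genes past the threshold without overlap (leaving out unnamed models and families of near-identical genes), up to 5 members of a list by adjusted p, 30 fixed genes and 6 in each direction of the contrast of cell types; others are marked. A fold said to be at least some size sets the dim group, array by array, at no less than the mean of 5222 negative control probe sets. Same-numbered HGF and Ito cultures were not paired, since the labels state no pairing. Their deviations from the group means correlated at 0.165, 0.217 and 0, against -0.256 to 0.151 for cultures with different numbers. The values 0.165 and 0.217 lie above that range, and whether same-numbered cultures share a source was not tested. No pair of the 6 arrays had equal values in more than 2 genes. Alternatives were quantile normalization, median centring, a filter on dim genes, smaller sets of arrays, trend and robust variance, a replicate block, the mean of probe sets, a 2-fold minimum and each array left out. Figures were drawn with matplotlib 3.10.9.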

Additional observations from a re-analysis of the deposited data

Results flagged for a closer look

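The HGF minus Ito difference differed between Kupffer cells and monocytic macrophages, by the contrast of both differences in the limma fit, for 212 genes that were more positive and 163 that were more negative in Kupffer cells. The 6 genes with the smallest adjusted p on the positive side were Vsig4, at 5.82 (adjusted p = 3.96e-13), S100a7a at 3.45, Perp at 4.98, Bcl2l15 at 3.50, Olfml3 at 4.84 and Rbp4 at 3.19. Olfml3, a secreted matrix protein, stood out by its monocytic fall: it had 9.37 ± 0.27 with Ito cells and 5.29 ± 0.45 with HGF there (SD, n = 3 each), while in Kupffer cells its difference of 0.77 did not pass and the level was near background. S100a7a and Bcl2l15 rose in Kupffer cells from under background with Ito cells to 8.12 ± 0.57 and 7.25 ± 0.40 with HGF (SD, n = 3). On the negative side were Serpinb1a, at -6.23 (adjusted p = 1.32e-09), Ppbp at -7.17, Ngp at -4.55, Ccl8 at -4.92, Muc13 at -3.19 and Hilpda at -3.32. Muc13, a mucin of epithelial surfaces, fell in Kupffer cells from 9.005 ± 0.58 with Ito cells to 5.57 ± 0.55 with HGF and was under background in the monocytic arrays. Hilpda was well above background in both cell types and differed by 0.53 in monocytic macrophages, which did not pass. All 12 kept their call in the contrast of cell types under every alternative run, which does not hold for the Kupffer difference alone.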

How the results depend on the processing

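Among 15 alternatives for the Kupffer comparison, counts left the range of 1.5 times the reported 368 higher and 201 lower genes in few. With the spread of only the arrays compared they were 240 and 124, and without the 3 arrays that stood apart (a choice made after seeing the data: MCSF replicate 1 and HGF replicate 2 of Kupffer cells at 1 day and MCSF replicate 3 of monocytic macrophages at 3 days) 614 and 488. Leaving out each array in turn gave 188 to 521 higher and 98 to 212 lower genes. In the contrast of cell types it gave 146 to 306 more positive and 97 to 195 more negative genes, and without the 3 arrays 476 and 483. The 33 lists without the 3 further ones hold 572 measured entries, with a gene counted in each of its lists. In them, 57 different genes rose and 33 fell, where 1.89% and 1.03% of all genes did. These counts were 37 to 64 and 25 to 35 with arrays left out and 89 and 65 without the 3 arrays. Over all alternatives, the stellate list had 8 to 15 rises (8 to 13 with single arrays of these groups left out), the epithelial list 9 or 10, the neutrophil list 7 to 9 falls, and the Kupffer list 5 to 8 rises and 1 fall, with 2 falls on the 24 arrays of 3 days, with the replicate block and without the 3 arrays. With the replicate number as a block, on those 24 arrays, 384 genes were higher and 257 lower, and 490 of these 641 were shared with the 569 reported. The labels do not say whether same-numbered samples share more than a number. Of 99 named genes that passed, 63 kept their call under every alternative, 36 lost it in at least 1, and none reversed. Quantile normalization moved the median difference from -0.08 to -0.02 and the share of higher calls from 64.7% to 59.9%; without Ito replicate 1 that share was 77%. The causes were not tested. With 3 arrays a group, differences near background are the least certain, and both group means lay under the negative controls in 69 of the genes that passed.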

Other observations

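Several groups of genes outside the lists above moved with HGF in these Kupffer cultures; all were picked after the values were seen, so their counts support nothing. The major urinary protein genes Mup2, Mup19 and Mup22, products of hepatocytes that are near-identical in sequence and may share probes, read from 9.19 to 12.09 with HGF and from 6.39 to 7.93 with Ito cells. Their differences were 3.38 ± 0.44, 2.93 ± 0.43 and 3.18 ± 0.43, and HGF replicate 2 was highest in each. Genes of epithelial adhesion and wound response also rose. Sprr1a, of the cornified envelope of stressed epithelia, was at least 9.26-fold higher with the Ito level at background. Itga3, a laminin-binding integrin subunit, differed by 3.42 ± 0.40. Epha2, an ephrin receptor, and the giant cadherin gene Fat1 were at least 5.75-fold and 7.24-fold higher on the same basis. Ccl6, a chemokine of myeloid cells, fell by 2.53 ± 0.39, from 16.37, 15.99 and 15.70 among the Ito cultures to between 12.73 and 14.35 with HGF.

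The lists differed already at the earlier time. After 1 day, the mean level of the epithelial list was 6.62 to 7.55 with HGF and 4.61 to 4.74 with Ito cells, and that of the neutrophil list was 7.84 to 8.61 and 10.97 to 11.12. The endothelial list stood at 7.24 to 7.87 with HGF and 5.64 to 5.70 with Ito cells after 1 day, while the stellate list was at 5.90 to 6.16 and 5.80 to 5.86. The platelet list had 9.08 to 9.62 with HGF and 8.82 to 8.89 with Ito cells after 1 day, the opposite order to that after 3 days. These differences of levels between times were not tested.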
